A study of Mus musculus with 9 samples.

Results

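The response common to both macroH2A1 isoform knockdowns was taken as the 6 knockdown samples of C2C12 myotubes pooled as one group and set against the 3 controls. Its members were the genes whose level in all 6 knockdown samples lay above, or in all 6 below, all 3 controls. They numbered 1173 of the 19545 genes tested (6.00%), 632 above (3.23%) and 541 below (2.77%). The rule fixes these counts and directions, and they are a description. Levels are in CPM, the counts relative to the total of the library, scaled between samples by the trimmed mean of M values.

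C2C12 is an established mouse myoblast line that fuses into multinucleated myotubes when the serum is reduced. Poly(A) RNA was sequenced at day 4 of differentiation, 3 replicates for each of 3 groups. KD mH2A1.1 and KD mH2A1.2 samples were C2C12 cells given siRNA at 10 nM, repeatedly from before the change of medium, each against a single splice isoform of macroH2A1, and the labels do not say which siRNA was used. The controls are labelled wild type. The study lists a scramble siRNA as its control, and the labels do not say whether these samples received it. Both knockdowns are measured against the same 3 controls, so a deviation of these controls, a response to transfection or siRNA in general where the controls had none, and a response to loss of either isoform cannot be told apart. The study describes the replicates as independent biological ones.

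MacroH2A1 is a histone H2A variant with a large globular macrodomain, and alternative splicing of its gene gives the isoforms mH2A1.1, which binds ADP-ribose, and mH2A1.2, which does not. Among the genes below the controls, those of cholesterol synthesis made up the largest share of any gene list examined. In that pathway acetyl-CoA is built up to mevalonate, isoprenoids, squalene and then the sterols, and when membrane sterol is low the transcription factor SREBP2 is released from the endoplasmic reticulum and turns on the genes of synthesis and of sterol uptake together.

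The libraries held between 36924252 and 42223108 counts each. The 10 most abundant genes took 6.52% to 9.19% of the counts and mitochondrial genes took 3.94% to 5.30%. KD mH2A1.1 stood clear of the controls in both, with 6.52% to 6.96% beside 7.02% to 8.29% for the 10 most abundant genes and 5.11% to 5.29% beside 3.94% to 4.98% for mitochondrial genes, whereas KD mH2A1.2 overlapped with the controls. The part of these differences in the results was not tested. In the pooled fit of 6 against 3 samples, edgeR's quasi-likelihood test called 0 of 19545 genes (0%) at an adjusted p under 0.05. The smallest adjusted p there was 0.0651, shared by Lss, Dhcr7 and Ormdl3, and 1870 genes had an unadjusted p under 0.05. DESeq2 called 260 genes in the same pooled comparison and limma-voom called 0. In this fit the spread between the knockdowns counts as error.

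With the 3 groups in 1 model and the mean of both knockdowns set against the controls, 129 genes (0.660%) were called, 75 higher (0.384%) and 54 lower (0.276%). Of these, 52 higher and 48 lower also had all 6 knockdown samples outside the controls. Below, "rose" and "fell" are used of genes called by this contrast. A large change in 1 knockdown can carry the mean. Of the 52, KD mH2A1.1 alone called 49 and KD mH2A1.2 alone 31, and 28 were called in both in the same direction. Of the 48, they called 43 and 33, and 28 were called in both in the same direction. Over all tested genes, 70 were called in both knockdowns in the same direction and 80 in opposite directions. With the replicate number as a block the contrast called 676 genes, 358 higher and 318 lower, including all 129. Against the same controls KD mH2A1.1 alone called 2171 genes (11.1%), 4065 with the block, and KD mH2A1.2 alone 460 (2.35%), 1005 with the block. The count of 129 depended on single samples. It was 2 without control replicate 3, 6 without control replicate 1 and 10 without control replicate 2. Leaving out a KD mH2A1.1 sample gave 31, 309 and 23 calls for replicates 1, 2 and 3. Leaving out a KD mH2A1.2 sample gave 62, 7 and 83. The direction of each of the 55 called genes named by rule held in all 13 alternatives. For genes with all 6 knockdown samples outside the controls, leaving out a sample could hardly turn the direction. The 9 fits that leave out a sample are therefore no check of it. Of these 55 Arhgef26 alone was called in all 13 alternatives, with an adjusted p of at most 0.0483. Differences between the knockdowns are given below as the log2 fold change of KD mH2A1.1 over KD mH2A1.2.

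**Figure D1:**
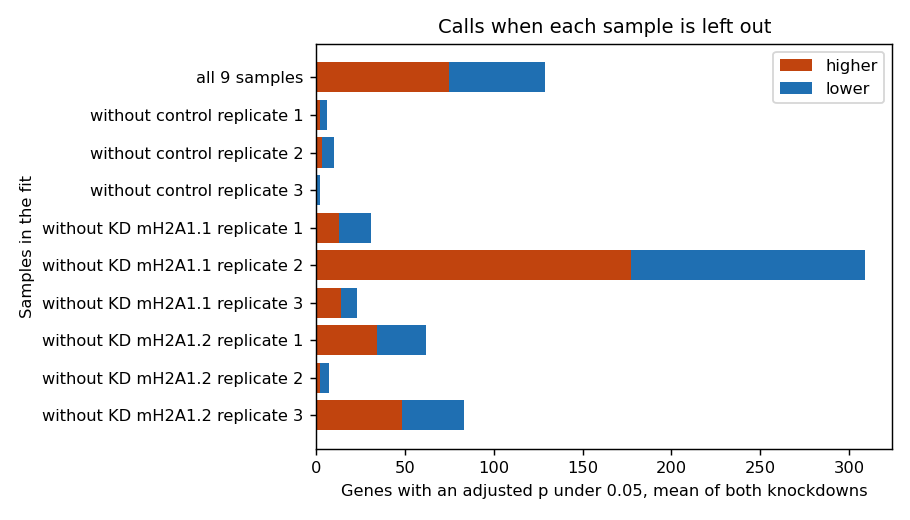
Number of genes with an adjusted p under 0.05 for the mean of both knockdowns against control (x axis), split into higher and lower, in the fit of all 9 samples and in fits that leave out 1 sample each (y axis). The count is 129 with all samples, 309 without KD mH2A1.1 replicate 2, and between 2 and 10 without any one of the controls.

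H2afy, the gene that encodes both macroH2A1 isoforms (ENSMUSG00000015937, minus strand, GRCm38 chr13:56073619-56136361), was among the genes that fell. Its level was 56.3, 62.4 and 61.0 CPM in the controls, 38.8, 30.0 and 30.9 in KD mH2A1.1 and 46.8, 47.2 and 43.2 in KD mH2A1.2. All 6 knockdown samples were below the controls, and the KD mH2A1.1 samples were below those of KD mH2A1.2. For H2afy the mean of both knockdowns gave -0.62 ± 0.09 (SE, adjusted p = 0.0288). On its own, KD mH2A1.1 was at -0.85 ± 0.11 (log2, SE, adjusted p = 0.00331) against control and KD mH2A1.2 at -0.39 ± 0.11 (log2, SE, adjusted p = 0.108). The gene total does not separate the isoforms. The call was lost without any one control, without KD mH2A1.1 replicate 3 and without KD mH2A1.2 replicate 2 (adjusted p from 0.065 to 0.131). H2afy2, which encodes the related macroH2A2, had a log2 fold change of -0.27 ± 0.21 (SE) and overlapped with the controls.

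Cholesterol synthesis was the list with the largest share of genes outside the controls. All 6 knockdown samples were below the controls for 15 of its 21 genes (71.4%), above for 0, and 3 more had 5 of 6 samples below. Over all tested genes 2.77% were below. The median log2 fold change over the list was -0.73 for the mean of both knockdowns, beside 0.00 over all tested genes. Against the shared controls the list's median was -0.61 for KD mH2A1.1 and -0.80 for KD mH2A1.2. The mean contrast called 9 of the 21 genes lower and 0 higher, and 13 lower with the replicate block. This number was 4 and 5 without KD mH2A1.1 replicate 1 and 3, 2 without KD mH2A1.2 replicate 2, 2 without control replicate 1 or 2, and 0 without control replicate 3, while the log2 fold change of all 21 genes stayed below 0 in each of these fits. The number of genes with all remaining samples below the controls ranged from 15 to 17. For genes with all 6 samples below, leaving out a sample can hardly change this count or the direction, since fewer samples have to agree.

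The promoters of 4 of the genes that fell are shown because these genes moved together. Each holds a CCAAT box, a motif found in 37.4% of all promoters, and Hmgcs1 alone also holds the core of the sterol regulatory element. The promoters are 300 bases each from RefSeq on GRCm38.p6, 250 before and 50 after the annotated start, read on the coding strand. Capitals mark the CCAAT box (CCAAT on either strand, hence also ATTGG) and the core of the sterol regulatory element that SREBP2 binds (TCACNCCAC on either strand). The promoters lie at chr13:119690101-119690400 (plus strand) for Hmgcs1, chr10:76531355-76531654 (plus strand) for Lss, chr8:64733529-64733828 (minus strand) for Msmo1 and chr8:122443373-122443672 (minus strand) for Mvd.
Hmgcs1: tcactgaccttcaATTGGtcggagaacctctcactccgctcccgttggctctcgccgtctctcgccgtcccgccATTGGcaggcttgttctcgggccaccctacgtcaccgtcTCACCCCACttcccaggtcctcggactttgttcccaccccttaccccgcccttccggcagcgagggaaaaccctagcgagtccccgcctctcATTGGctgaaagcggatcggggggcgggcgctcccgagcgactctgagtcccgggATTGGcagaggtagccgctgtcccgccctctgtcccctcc
Lss: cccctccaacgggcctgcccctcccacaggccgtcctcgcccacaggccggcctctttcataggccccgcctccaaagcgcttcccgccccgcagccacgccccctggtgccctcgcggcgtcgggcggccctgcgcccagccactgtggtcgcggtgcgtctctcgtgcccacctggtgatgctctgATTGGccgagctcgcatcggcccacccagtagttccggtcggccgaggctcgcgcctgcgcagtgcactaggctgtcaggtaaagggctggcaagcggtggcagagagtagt
Msmo1: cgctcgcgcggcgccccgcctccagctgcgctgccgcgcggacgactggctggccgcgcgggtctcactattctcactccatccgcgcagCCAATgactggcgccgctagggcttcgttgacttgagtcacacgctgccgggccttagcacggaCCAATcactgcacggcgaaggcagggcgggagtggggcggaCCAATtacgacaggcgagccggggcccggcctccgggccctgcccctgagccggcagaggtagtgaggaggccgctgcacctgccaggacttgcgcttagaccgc
Mvd: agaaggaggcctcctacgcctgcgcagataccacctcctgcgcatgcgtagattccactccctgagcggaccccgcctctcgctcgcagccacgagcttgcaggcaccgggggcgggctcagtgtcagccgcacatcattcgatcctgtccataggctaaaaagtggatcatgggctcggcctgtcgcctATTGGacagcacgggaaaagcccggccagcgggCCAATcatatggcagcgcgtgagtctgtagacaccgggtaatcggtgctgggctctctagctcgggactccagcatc

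Hmgcs1 had 1 sterol regulatory element core and 4 CCAAT boxes in this window. Lss had 1 CCAAT box, Msmo1 had 3 and Mvd had 2, each without the 9-letter core. Of the 21 cholesterol synthesis genes 16 were in the promoter table, and 15 of these 16 (93.8%) held a CCAAT box in at least 1 annotated promoter. The box was found for 42.9% of the 12137 tested genes in the table and in 37.4% of all 32851 promoters. The sterol regulatory element core was found for 1 of the 16 genes (6.25%), for 1.40% of the tested genes and in 1.24% of all promoters. Among the genes that were called and outside the controls, a CCAAT box was found for 19 of the 35 lower genes in the table (54.3%) and for 12 of the 37 higher ones (32.4%). A match is a description of letters in this window only.

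The early enzymes lead from acetyl-CoA to mevalonate. Hmgcs1, the cytosolic HMG-CoA synthase, fell. Its level was 350.4, 346 and 414 CPM in the controls, 213, 204 and 186 in KD mH2A1.1 and 147, 193 and 221 in KD mH2A1.2. All knockdown samples were well below the lowest control and both knockdowns lay in the same range. On the log2 scale this was a change of -0.93 ± 0.12 (SE, adjusted p = 0.0281). Acat2, the thiolase that starts the pathway, was below the controls in all 6 samples at a log2 fold change of -1.13 ± 0.22 (SE, adjusted p = 0.0522, and 0.0367 with the replicate block). Its counts are uncertain where reads could be shared with its close paralog Acat3.

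The mevalonate kinases and the isoprenoid enzymes follow. Mvd was at 45.1, 54.3 and 76.7 CPM in the controls, at 26.6, 23.9 and 19.3 with KD mH2A1.1 and at 17.0, 28.4 and 33.7 with KD mH2A1.2. Mvd encodes mevalonate diphosphate decarboxylase, and it fell in all samples despite a wide spread among the controls. Both knockdowns together gave a log2 fold change of -1.25 ± 0.21 (SE, adjusted p = 0.0380). Pmvk, the phosphomevalonate kinase, fell by 0.73 on the log2 scale (adjusted p = 0.0433). Mvk, the kinase before it, was at -0.34 ± 0.13 (SE) and its KD mH2A1.1 samples overlapped with the controls. Idi1 and Fdps, which make the isoprenoid units and farnesyl diphosphate, were below the controls in all 6 samples, at log2 fold changes of -0.84 and -0.71. They missed the threshold (adjusted p = 0.0622 and 0.0587) and passed with the replicate block (0.0434 and 0.0479).

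Squalene synthase commits the pathway to sterols. The controls held 172, 164 and 175 CPM of Fdft1, the KD mH2A1.1 samples 133, 128 and 86.7 and the KD mH2A1.2 samples 74.4, 85.6 and 89.7. Fdft1, the squalene synthase, fell in both knockdowns and further in KD mH2A1.2. The mean log2 fold change was -0.80 ± 0.13 (SE, adjusted p = 0.0322). The difference between the knockdowns was 0.48 ± 0.15 (SE, adjusted p = 0.0454). Sqle, the epoxidase that acts next, overlapped with the controls in the KD mH2A1.1 samples and had a log2 fold change of -0.32 ± 0.12 (SE). Lss, the lanosterol synthase, shared the smallest adjusted p of the genes that fell with Arhgef26. Its level was 98.9, 87.6 and 105 CPM in the controls, 43.5, 40.9 and 37.1 in KD mH2A1.1 and 40.2, 48.7 and 57.5 in KD mH2A1.2. The highest knockdown sample, 57.5 CPM, was well below the lowest control, 87.6 CPM. For Lss the mean of both knockdowns gave -1.13 ± 0.11 (SE, adjusted p = 0.00722). Without control replicate 3 its adjusted p was 0.0531 at a log2 fold change of -1.08. Between the knockdowns the difference was -0.27 ± 0.13 (SE, adjusted p = 0.174).

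The late enzymes turn lanosterol into cholesterol. Dhcr7 was at 114, 110.5 and 143 CPM in the controls, at 46.9, 66.8 and 53.1 with KD mH2A1.1 and at 58.2, 62.8 and 62.3 with KD mH2A1.2. Dhcr7 encodes the last reductase of one branch, and the ranges of both knockdowns overlapped. On the log2 scale this was a change of -1.07 ± 0.12 (SE, adjusted p = 0.0117). Its adjusted p was 0.0558 without control replicate 3. Msmo1, the sterol C4 methyl oxidase, was the gene with the largest p between the knockdowns among those that fell. Its level was 149, 129 and 149 CPM in the controls, 93.2, 86.6 and 67.3 in KD mH2A1.1 and 72.3, 85.6 and 88.0 in KD mH2A1.2. Both knockdowns together gave a log2 fold change of -0.79 ± 0.11 (SE, adjusted p = 0.0281). The difference between the knockdowns was 0.01 ± 0.13 (SE, adjusted p = 0.975). Tm7sf2, a sterol C14 reductase, fell by 1.09 (adjusted p = 0.0281) and was lower in KD mH2A1.1, with a difference of -0.64 ± 0.19 (SE, adjusted p = 0.0343). Sc5d, the lathosterol desaturase, fell by 0.67 (adjusted p = 0.0433).

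Nsdhl, Cyp51 and Lbr, which also act on the ring, were below the controls in all 6 samples without passing the test. Their log2 fold changes were -0.80, -0.34 and -0.24. Hsd17b7 and Ebp overlapped with the controls, at -0.42 and -0.11. All 21 values were below 0, from -0.11 for Ebp to -1.25 for Mvd.

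**Figure D2:**
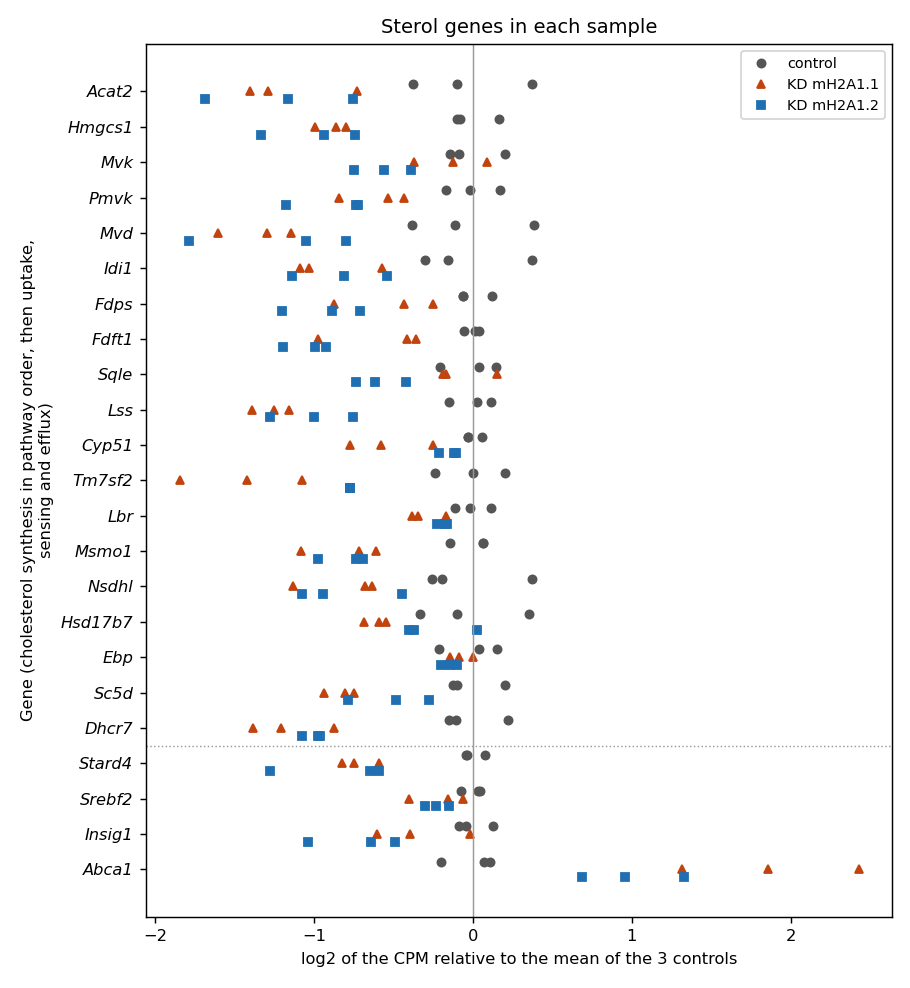
log2 of the CPM of each sample relative to the mean of the 3 controls (x axis) for 19 of the 21 cholesterol synthesis genes in pathway order and, under the dotted line, 4 genes of uptake, sensing and efflux (y axis). Each point is 1 sample. For 15 of these 19 genes all 6 knockdown points lie left of the controls, and Abca1 is the only one of the 23 genes with all 6 to the right.

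Genes of sterol uptake and sensing come next. Of 16 tested, 3 were below the controls in all 6 samples (18.8%, beside 2.77% of all tested genes), 0 above, and 2 fell by the test. Stard4, a carrier of cholesterol between membranes, was among the genes that fell. Its level was 67.4, 67.9 and 73.4 CPM in the controls, 46.1, 39.3 and 41.4 in KD mH2A1.1 and 28.7, 44.5 and 46.2 in KD mH2A1.2. All 6 knockdown samples were below the lowest control. Its log2 fold change was -0.76 (adjusted p = 0.0403).

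Npc1, the lysosomal cholesterol exporter, was below the controls in all 6 samples at a log2 fold change of -0.25 (adjusted p = 0.232). The regulators themselves gave small values. Srebf2, which encodes SREBP2, was at -0.21 ± 0.10 (SE), Scap, its escort, at 0.05, and Srebf1 at 0.04. Insig1, the sterol-dependent anchor of SCAP and itself an SREBP target, was at -0.52 ± 0.14 (SE, adjusted p = 0.123), with KD mH2A1.1 replicate 1 inside the controls. Insig2, Mbtps1, Mbtps2, Npc2, Mylip and Scarb1 had log2 fold changes between -0.27 and 0.05. Lrp8 and Vldlr overlapped with the controls, at -0.66 and -0.26.

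On the export side Abca1, the transporter that loads cholesterol onto apolipoprotein A-I, was the 1 gene of 11 above the controls in all 6 samples, and it rose. Abca1 was at 2.30, 2.85 and 2.78 CPM in the controls, at 9.56, 6.59 and 14.2 with KD mH2A1.1 and at 5.12, 4.25 and 6.63 with KD mH2A1.2. Each knockdown sample was above the highest control by more than 1 CPM. The mean log2 fold change was 1.47 ± 0.25 (SE, adjusted p = 0.0387). The rise was larger in KD mH2A1.1, with a difference of 0.92 ± 0.27 (SE, adjusted p = 0.0332). Of the 18 tested genes of fatty acid synthesis and desaturation, 3 were below the controls (16.7%, beside 2.77% of all tested genes) and 0 above. Acss2, the cytosolic acetyl-CoA synthetase, fell by 0.58 (adjusted p = 0.0425), mostly in KD mH2A1.2. On its own KD mH2A1.1 was at -0.28 (log2, adjusted p = 0.150) and KD mH2A1.2 at -0.88 (log2, adjusted p = 0.0116). The desaturase Fads2 and the elongase Elovl5 were at -0.38 and -0.26 without passing. None of the 11 genes of the isoprenoid and dolichol branch lay outside the controls.

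Among other lipid genes, Ormdl3, an endoplasmic reticulum protein that restrains the first enzyme of sphingolipid synthesis, had the smallest adjusted p of the genes that rose. The controls held 33.4, 37.1 and 34.9 CPM of Ormdl3, the KD mH2A1.1 samples 54.9, 55.7 and 53.7 and the KD mH2A1.2 samples 59.1, 63.4 and 63.6. Both groups of knockdown samples were tight and clear of the controls. For Ormdl3 the mean of both knockdowns gave 0.73 ± 0.07 (SE, adjusted p = 0.00722). Without control replicate 1 and without control replicate 3 its adjusted p was 0.0523 and 0.0531. Pigh, a subunit of the enzyme that starts glycosylphosphatidylinositol anchors, rose by 0.91 (adjusted p = 0.0281). Its value in KD mH2A1.2 alone was 0.52 (log2, adjusted p = 0.111).

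A pair of prostaglandin enzymes was among the largest falls. With KD mH2A1.1 Ptgds was at 3.41, 2.91 and 2.72 CPM and with KD mH2A1.2 at 1.21, 0.809 and 1.29, beside 7.17, 4.88 and 5.36 in the controls. Ptgds makes prostaglandin D2, and its level was lowest in KD mH2A1.2. On the log2 scale this was a change of -1.67 ± 0.19 (SE, adjusted p = 0.0117). The knockdowns differed by 1.45 ± 0.24 (SE, adjusted p = 0.00282). Hpgd was at 6.72, 6.16 and 5.47 CPM in the controls, at 1.11, 1.83 and 1.27 with KD mH2A1.1 and at 1.46, 3.86 and 2.58 with KD mH2A1.2. Hpgd, which inactivates prostaglandins, was lower on average in KD mH2A1.1, with a difference of -0.91 ± 0.33 (SE, adjusted p = 0.0713). Both knockdowns together gave a log2 fold change of -1.67 ± 0.26 (SE, adjusted p = 0.0321).

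Muscle genes were found among those below the controls. In the sarcomere list 3 of 27 genes were below (11.1%) and 0 above, in the calcium handling list 4 of 15 (26.7%) and 0 above. Over all tested genes 2.77% were below and 3.23% above. Each knockdown alone against the shared controls gave different counts. In the sarcomere list KD mH2A1.1 called 2 genes higher and 2 lower and KD mH2A1.2 called 0 higher and 4 lower, the medians were -0.08 and -0.53, and 14 of the 27 genes were called between the knockdowns. In the calcium handling list KD mH2A1.1 called 3 higher and 0 lower, KD mH2A1.2 called 0 higher and 4 lower, and 5 of the 15 genes were called between the knockdowns. Of all 19545 tested genes, KD mH2A1.1 called 1208 higher and 963 lower (11.1% together) and KD mH2A1.2 268 and 192 (2.35%). Between the knockdowns 22.5% of all tested genes were called. Actn2, the Z-disc alpha-actinin, fell. Its level was 192, 169.7 and 179 CPM in the controls, 86.1, 132 and 105 in KD mH2A1.1 and 81.4, 72.9 and 72.3 in KD mH2A1.2. The knockdown samples did not overlap with the controls and were lower in KD mH2A1.2. The mean log2 fold change was -1.00 ± 0.12 (SE, adjusted p = 0.0143). Its adjusted p was 0.0563 to 0.0874 without any one control and 0.0606 without KD mH2A1.2 replicate 2. Neb and Tnni2, which encode nebulin and fast troponin I, were at -0.70 and -0.63 and missed the threshold (adjusted p = 0.0975 and 0.129).

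The calcium handling genes outside the controls were Casq1, the calcium-binding protein of the sarcoplasmic reticulum, the junctophilins Jph1 and Jph2, and Cacnb1, a subunit of the voltage sensor. Their log2 fold changes were -0.89, -0.58, -0.50 and -0.49, with adjusted p from 0.0520 to 0.155. The list's median was -0.42 for the mean of both knockdowns, -0.17 for KD mH2A1.1 and -0.53 for KD mH2A1.2. Klhl40, a stabilizer of the thin filament, fell and was the gene among those that fell with the smallest p between the knockdowns. Its level was 51.7, 53 and 52.2 CPM in the controls, 50.6, 45.2 and 41.3 in KD mH2A1.1 and 30.2, 28.5 and 28.9 in KD mH2A1.2. The KD mH2A1.1 samples lay just under the controls and those of KD mH2A1.2 well below. For Klhl40 the mean of both knockdowns gave -0.52 ± 0.08 (SE, adjusted p = 0.0293). The difference was 0.65 ± 0.09 (SE, adjusted p = 0.00156).

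Myog, the transcription factor of terminal differentiation, was below the controls in all 6 samples. Myog was at 624, 628 and 745 CPM in the controls, at 442, 484 and 337 with KD mH2A1.1 and at 556, 567 and 614 with KD mH2A1.2. The KD mH2A1.1 samples were lowest. Its log2 fold change was -0.43 (adjusted p = 0.128). In the fusion list 2 of 15 genes were below (13.3%, beside 2.77% of all tested genes). They were the transcription factor Nfatc2 and the membrane protein Tmem182, at -1.21 and -0.69 without passing. The list's median was 0.05 for the mean of both knockdowns, 0.05 for KD mH2A1.1 and -0.01 for KD mH2A1.2.

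The source label reads myoblast for all samples, while they were collected as myotubes. The summed level of the 6 myotube markers was 11279.9 to 15670.4 CPM in the controls, 9890.4 to 10916 in KD mH2A1.1 and 10194 to 12897 in KD mH2A1.2. The sum lay below the controls in KD mH2A1.1 and overlapped with them in KD mH2A1.2. Of the 6 markers, 1 was below the controls in all 6 knockdown samples. Their part in the result was not tested. From bulk RNA alone a smaller share of myotubes and less RNA per myotube cannot be told apart. By imaging, the paper reports that total nuclei numbers were unchanged in both knockdowns. It reports a higher percentage of cells expressing myosin heavy chain with KD mH2A1.2 only. Fusion was reported as lower with KD mH2A1.1 and higher with KD mH2A1.2. How these cell counts relate to the marker sums was not tested. The summed level of the 5 myoblast markers was 1496 to 1934 CPM in the controls, 2138 to 2799 in KD mH2A1.1 and 1075 to 1603 in KD mH2A1.2, with 0 of 5 outside in both. Of the other cell types, smooth muscle markers summed to 1738 to 3496 CPM over all samples, bone and cartilage markers to 71.6 to 114, endothelial markers to 4.86 to 8.92 and adipocyte markers to 0.272 to 1.57. Adipoq, Cidec and Lep of the adipocytes and Ibsp and Acan of bone and cartilage had 3 counts or fewer in every sample.

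Metabolic and insulin genes stood on both sides. Fbxo40, a muscle F-box protein known to target the insulin receptor substrate IRS1, rose. Its level was 0.562, 0.746 and 0.877 CPM in the controls, 7.38, 6.15 and 8.20 in KD mH2A1.1 and 1.93, 1.23 and 1.85 in KD mH2A1.2. The level was low and rose further in KD mH2A1.1 than in KD mH2A1.2. On the log2 scale this was a change of 2.25 ± 0.23 (SE, adjusted p = 0.00795). The knockdowns differed by 2.12 ± 0.23 (SE, adjusted p = 0.000433), and without control replicate 3 the adjusted p was 0.0531. Irs1 itself rose. Its level was 89.6, 97.5 and 93.1 CPM in the controls, 128, 102 and 119.8 in KD mH2A1.1 and 158, 167 and 143 in KD mH2A1.2. Its larger change was in KD mH2A1.2. Both knockdowns together gave a log2 fold change of 0.53 ± 0.09 (SE, adjusted p = 0.0396). Ucp3, a mitochondrial carrier of muscle, fell by 1.21 (adjusted p = 0.0433) and Phka2, a regulatory subunit of phosphorylase kinase, by 0.81 (adjusted p = 0.0495). Phka2 in KD mH2A1.2 alone was at -0.57 (log2, adjusted p = 0.151).

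**Figure D3:**
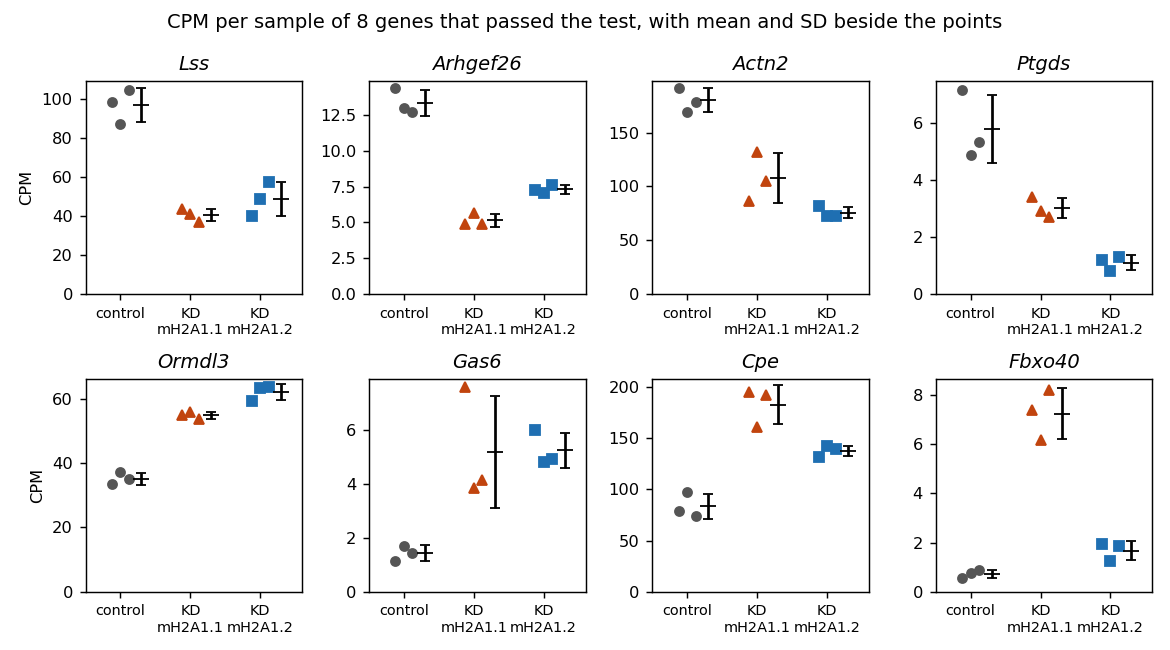
CPM of each sample (y axis, from 0) for 8 genes that passed the test, by group (x axis). Points are samples, and the bar beside them is the mean with the SD of 3 replicates. In each panel all 6 knockdown samples lie on one side of the controls, with Gas6 at the same mean in both knockdowns and Fbxo40 higher in KD mH2A1.1.

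Several of the genes that rose encode secreted or surface proteins. Gas6, the ligand of the TAM receptor kinases, rose in both knockdowns. Gas6 was at 1.12, 1.71 and 1.42 CPM in the controls, at 7.56, 3.85 and 4.12 with KD mH2A1.1 and at 5.97, 4.80 and 4.91 with KD mH2A1.2. The mean log2 fold change was 1.87 ± 0.26 (SE, adjusted p = 0.0281). The difference between the knockdowns was -0.01 ± 0.27 (SE, adjusted p = 0.976). Cpe, the prohormone-processing carboxypeptidase E, also rose. Its level was 78.9, 97.0 and 73.9 CPM in the controls, 195, 161 and 192 in KD mH2A1.1 and 132, 142 and 139 in KD mH2A1.2. For Cpe the mean of both knockdowns gave 0.93 ± 0.11 (SE, adjusted p = 0.0143). F2r, the thrombin receptor, rose by 0.73 (adjusted p = 0.0380). Chst11, a chondroitin sulfotransferase, was the gene with the largest p between the knockdowns among those that rose. Its level was 31.8, 38.3 and 31.8 CPM in the controls, 50.1, 47.3 and 48.0 in KD mH2A1.1 and 46.2, 46.9 and 52.3 in KD mH2A1.2. On the log2 scale this was a change of 0.51 ± 0.09 (SE, adjusted p = 0.0390). Its difference between the knockdowns was 0.00 ± 0.10 (SE, adjusted p = 1.000).

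Tgm5, a transglutaminase, rose from under 1 CPM. Tgm5 was at 0.535, 0.933 and 0.980 CPM in the controls, at 5.38, 4.22 and 4.05 with KD mH2A1.1 and at 6.00, 2.11 and 1.96 with KD mH2A1.2. KD mH2A1.2 replicate 1 was near the KD mH2A1.1 samples and the other two KD mH2A1.2 samples were lower. Both knockdowns together gave a log2 fold change of 2.25 ± 0.41 (SE, adjusted p = 0.0433). Eif4g2, a translation initiation factor, had the highest CPM of the genes that rose, a value not scaled for length, at 774 ± 17.7 CPM in the controls, 1199 ± 30.2 in KD mH2A1.1 and 1042 ± 78.1 in KD mH2A1.2 (SD, n = 3 each). The mean log2 fold change was 0.53 ± 0.09 (SE, adjusted p = 0.0392). Cgnl1, a junction protein, and Frrs1, a ferric reductase, rose by 0.96 and 0.60 (adjusted p = 0.0281 for both). Stmn4, a tubulin-binding stathmin, rose by 2.05 and differed between the knockdowns by 2.23 ± 0.36 (SE, adjusted p = 0.00279). Its value in KD mH2A1.2 alone was 0.94 (log2, adjusted p = 0.256).

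Arhgef26, an exchange factor for small GTPases, fell, and it was the named gene called in all 13 alternatives. Its level was 14.4, 13.0 and 12.7 CPM in the controls, 4.91, 5.68 and 4.86 in KD mH2A1.1 and 7.27, 7.05 and 7.65 in KD mH2A1.2. For Arhgef26 the mean of both knockdowns gave -1.12 ± 0.10 (SE, adjusted p = 0.00722). Its log2 fold change was between -1.17 and -1.06 over the 13 alternatives. Among the other large falls, Tm6sf1, Col20a1, Plekhh1, Rtl3, Ccdc3, Ces2c and Atcay had log2 fold changes from -1.55 for Tm6sf1 to -1.16 for Atcay, with adjusted p from 0.0281 to 0.0379. Ces2c in KD mH2A1.2 alone was at -0.42 (log2, adjusted p = 0.380), with replicate 1 at 6.72 CPM beside 6.95 in the lowest control. Col20a1 is a fibril-associated collagen. Its level was 12.0, 6.80 and 9.23 CPM in the controls, 2.94, 4.32 and 3.96 in KD mH2A1.1 and 2.95, 3.78 and 2.90 in KD mH2A1.2. Atcay shares its locus with an antisense transcript, and since strand was not stated for the counting, the reads of the pair cannot be told apart. Ptx3, a secreted pentraxin, fell by 1.61, mostly in KD mH2A1.1. Ptx3 was at 9.66, 14.0 and 13.8 CPM in the controls, at 0.938, 2.54 and 2.49 with KD mH2A1.1 and at 9.44, 8.98 and 6.69 with KD mH2A1.2. Its KD mH2A1.2 samples lay just under the lowest control, and the knockdowns differed by -2.07 ± 0.33 (SE, adjusted p = 0.00230). Zfp346, Fam49b and Dvl1, the last a transducer of Wnt signals, fell by 0.50, 0.51 and 0.43. Dvl1 in KD mH2A1.2 alone was at -0.29 (log2, adjusted p = 0.156).

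Interferon-stimulated genes were among the largest rises, and their values in KD mH2A1.1 exceeded those in KD mH2A1.2. In the interferon list 4 of 25 genes were above the controls in all 6 samples (16.0%, beside 3.23% of all tested genes), 0 below, and 5 more had 5 of 6 samples above. The list's median log2 fold change was 2.75 for KD mH2A1.1 and 0.20 for KD mH2A1.2. The controls held 4.20, 4.72 and 3.43 CPM of Oasl2, the KD mH2A1.1 samples 50.1, 28.0 and 117 and the KD mH2A1.2 samples 8.29, 5.27 and 5.40. Oasl2, a 2'-5' oligoadenylate synthetase-like protein, thus lay just above its controls in KD mH2A1.2 and far higher in KD mH2A1.1. Its log2 change was 2.30 ± 0.42 (SE, adjusted p = 0.0433). On its own KD mH2A1.2 was at 0.62 ± 0.45 (log2, SE, adjusted p = 0.563). The mean contrast called 2 genes of the list, Oasl2 and Oas2, of which Oas2 overlapped with the controls, and KD mH2A1.2 alone called 0. The other 3 list members above the controls were Ifi44, Gbp2 and Bst2, at mean log2 fold changes of 2.42, 1.28 and 1.46 without passing. The 5 leukocyte markers summed to 2.71 to 3.92 CPM in the controls, 6.00 to 11.3 in KD mH2A1.1 and 3.05 to 3.47 in KD mH2A1.2, and their part in the result was not tested. Adgre1 and Cd3e among them had 3 counts or fewer in every sample.

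The same form was seen in Parp14, Samd9l, Lgals3bp, Apol9a and Apol9b. With KD mH2A1.1 Parp14 was at 25.1, 15.2 and 46.0 CPM and with KD mH2A1.2 at 7.02, 6.47 and 5.77, beside 3.48, 4.16 and 3.92 in the controls. Parp14, a mono-ADP-ribosyltransferase, lay above the controls in each KD mH2A1.2 sample. Both knockdowns together gave a log2 fold change of 1.82 ± 0.30 (SE, adjusted p = 0.0379). Samd9l, an interferon-induced restriction factor, was above its controls in KD mH2A1.2 as well. Samd9l was at 10.4, 10.7 and 11 CPM in the controls, at 61.2, 41.0 and 101 with KD mH2A1.1 and at 26.8, 17.8 and 18.5 with KD mH2A1.2. The mean log2 fold change was 1.82 ± 0.27 (SE, adjusted p = 0.0281). Apol9a and Apol9b are near-identical neighbours whose reads could be split either way. Ifi27 rose by 0.80 (adjusted p = 0.0465), and its KD mH2A1.2 value was 0.39 ± 0.17 (log2, SE, adjusted p = 0.294). Parp12, the other member of the PARP and NAD list above the controls, was at 0.86 (adjusted p = 0.0975).

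Lilrb4a and Adamts8 were nearly silent in the controls. Lilrb4a, a leukocyte immunoglobulin-like receptor with a close paralog, had 0, 1 and 4 counts in the controls, 122, 98 and 205 with KD mH2A1.1 and 6, 8 and 5 with KD mH2A1.2. Adamts8, a secreted metalloprotease, had 4, 3 and 3 counts in the controls, 227, 79 and 130 with KD mH2A1.1 and 17, 5 and 5 with KD mH2A1.2. At these control counts no fold change against the controls is given, and in KD mH2A1.2 both genes were within a few counts of the controls except for Adamts8 in replicate 1.

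A part of the shared changes differed in size between the knockdowns. Of the 1173 genes outside the controls, 72 of the 632 above (11.4%) and 51 of the 541 below (9.43%) were called in the direct comparison of KD mH2A1.1 with KD mH2A1.2, which does not use the controls. Of all tested genes 22.5% were called there. The condition that both knockdowns lie on one side favours genes whose knockdowns are alike, so no test of these shares was made. Of the genes that were also called in the mean contrast, 22 of 52 higher (42.3%) and 21 of 48 lower (43.8%) differed between the knockdowns. Of the 22, 19 were higher in KD mH2A1.1, and of the 21, 10 had their larger fall in KD mH2A1.1. Over all tested genes, 2991 of the 4397 called between the knockdowns had their larger change in KD mH2A1.1. The median absolute log2 fold change against the shared controls was 0.48 for KD mH2A1.1 and 0.41 for KD mH2A1.2 in the genes above, and 0.46 and 0.34 in those below. Over all tested genes these medians were 0.28 and 0.20.

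**Figure D4:**
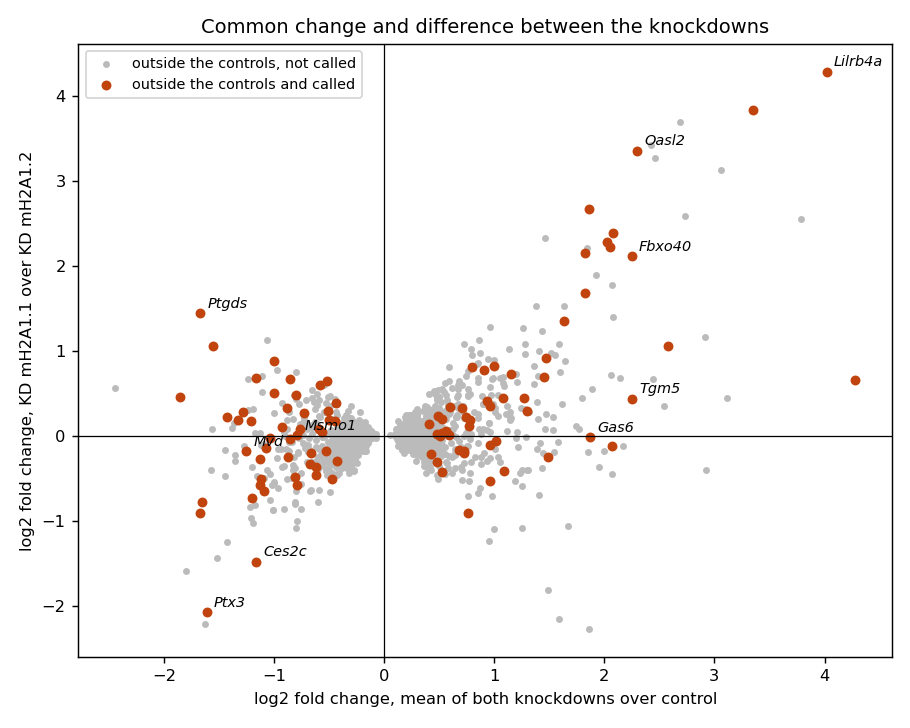
Each of the 1173 genes outside the controls by its log2 fold change for the mean of both knockdowns over control (x axis) and by the log2 fold change of KD mH2A1.1 over KD mH2A1.2 (y axis). Gas6 and Msmo1 lie near 0 on the y axis. Fbxo40, at 2.12 on the y axis, was higher in KD mH2A1.1. Lilrb4a, highest on the y axis at 4.29, had 0 to 4 counts in the controls and 5 to 8 in KD mH2A1.2.

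Ribosomal protein genes also had 4 members outside. They were below the controls in all 6 samples (4 of 21 tested, 19%, beside 2.77% of all tested genes). A further 5 were below in 5 of 6, and none of the list passed the test. Rpl8, Rpl18 and Rpl32 were among the 4, at log2 fold changes of -0.36, -0.34 and -0.43 (adjusted p from 0.135 to 0.177). These genes have many processed pseudogenes, so their counts are uncertain. In the lists of DNA replication (21 genes), mitosis (20), proteasome (21), heat shock (13), neuromuscular junction (12), TGF-beta and BMP (20) and NRF2 and glutathione (20) no gene lay outside the controls in all 6 samples. For DNA replication the median was 0.92 for KD mH2A1.1 and -0.17 for KD mH2A1.2, for mitosis 0.71 and -0.47, and for the extracellular matrix list, with 1 of 27 genes below, -0.71 and 0.59. In these 3 lists the medians had opposite signs. Both medians of cholesterol synthesis were below 0, and so were those of several other lists. For ribosomal proteins they were -0.38 for KD mH2A1.1 and -0.25 for KD mH2A1.2, and for glycolysis -0.09 and -0.19.

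**Figure D5:**
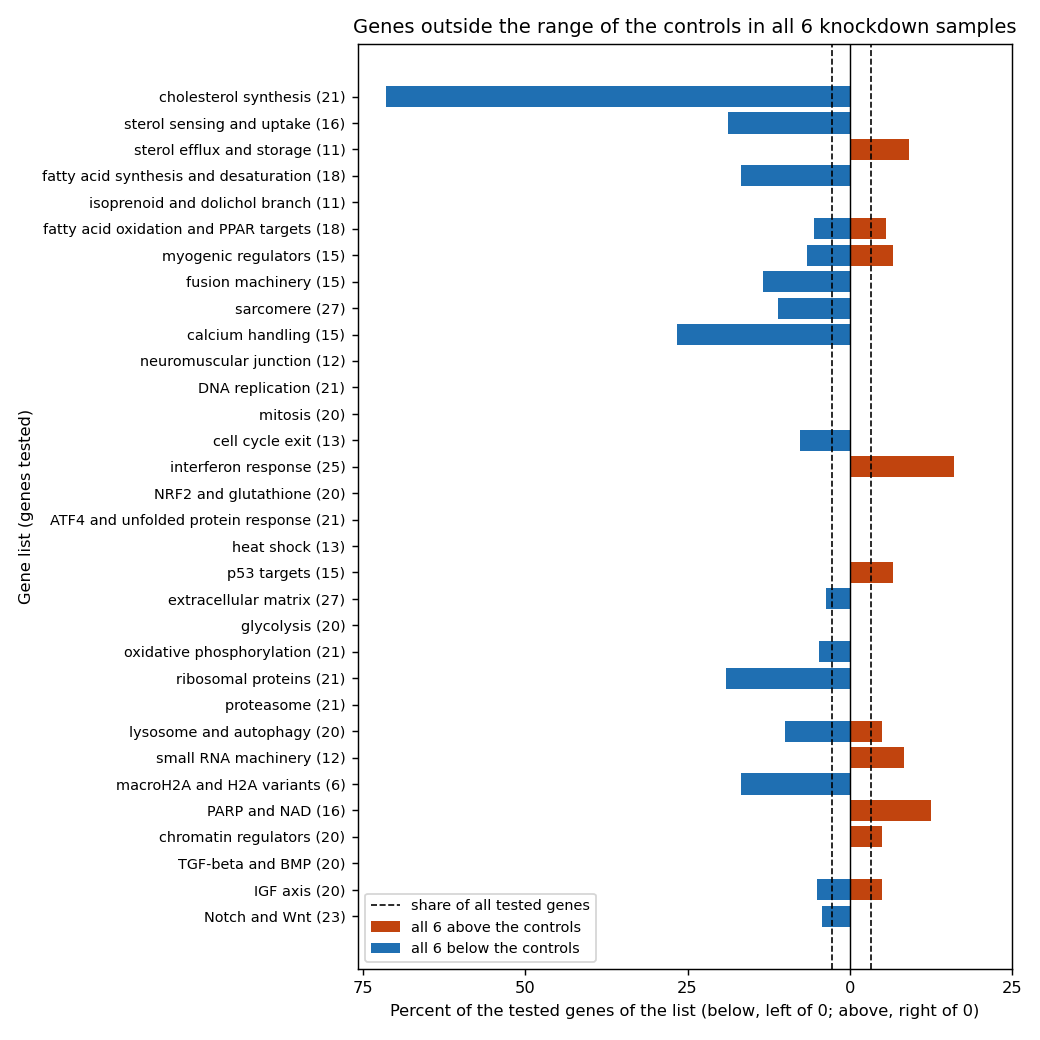
Percent of the tested genes of each list (y axis, number tested in parentheses) with all 6 knockdown samples below the controls (left of 0) or above (right of 0). Dashed lines mark the share of all tested genes, 2.77% below and 3.23% above. Cholesterol synthesis reaches 71.4% below, and no other list exceeds 26.7%.

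The genes outside the controls had a median level of 16.1 CPM above and 24.0 CPM below, beside 10.0 CPM over all tested genes, and 85.4% and 78.9% were protein coding, beside 73.3%. Their median exon length was 4244 and 3664 bases, beside 3550.0, and their median GC content 48.6% and 50.9%, beside 48.8%. A log2 fold change of at least 1 in size was found for 122 of the 632 genes above and 61 of the 541 below, beside 645 of all 19545 tested genes. The rule that chose the members uses the same values. A further 922 genes had 5 of 6 knockdown samples above the controls and 959 had 5 of 6 below. At the edge of the adjusted p, the pseudogene Dynlt1-ps1 was the last called gene (0.0497, overlapping with the controls). Ptdss1, a phosphatidylserine synthase, was the first not called (0.0503, all 6 samples above, and 0.0220 with the replicate block).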

How the data were processed

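RNA-seq was analysed in 9 samples, 3 each of control, KD mH2A1.1 and KD mH2A1.2, grouped by their labels. The authors selected poly(A) RNA, sequenced single reads of 50 bp and quantified them with Salmon on GRCm38. The deposited table used here holds expected counts per gene, as whole numbers without normalization, for 52780 genes. Use of strand in the counting was not given in the sources used here. The second deposited table, normalized values, was not used.

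Tests used edgeR 4.0.16 in R 4.3.3 (quasi-likelihood test, legacy form, trimmed mean of M values, filterByExpr, Benjamini-Hochberg adjustment, adjusted p under 0.05). The planned test pooled the 6 knockdown samples against 3 controls. It called 0 genes, so after the values were seen the rule for named genes was applied to the mean of both knockdowns in a model of 3 groups. DESeq2 1.42.0, limma-voom (limma 3.58.1), other scalings and filters, a replicate block and leaving out each sample were alternatives. The scripts were tested on simulated data.

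The members and the 39 gene lists were chosen with earlier results of these data known. Genes were named if they were H2afy or H2afy2, or in the lists of cholesterol synthesis and of sterol sensing and uptake. Among genes called and outside the controls, named were the 12 largest rises and falls of at least 1 CPM, the 8 smallest adjusted p and the 5 highest CPM in each direction, up to 4 per other list, those most and least different between the knockdowns, and those next to the threshold. Genes without a proper name were not named. Other list members outside the controls were chosen after their values were seen. Deviations from the group means correlated between samples of the same replicate number in all 9 pairs (r from 0.101 to 0.475). The replicate block therefore took the numbers to pair the samples. The labels do not state a pairing, though the sample codes of each replicate number run in sequence. The main contrast left the pairing out. Annotation was GENCODE M21, and promoters were from RefSeq on GRCm38.p6. Totals were 36924252 to 42223108 counts, and 3 counts were taken as the floor, for counting error only. A few genes of the lists are not reported here by name, though the counts over the lists include them.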

Additional observations from a re-analysis of the deposited data

Results flagged for a closer look

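These genes are listed because the direct comparison of KD mH2A1.1 with KD mH2A1.2 in edgeR was called at an adjusted p under 0.05. Values are log2 fold changes of KD mH2A1.1 over KD mH2A1.2. Among genes above the controls and higher in KD mH2A1.1, the difference was 4.29 for Lilrb4a, 3.84 for Adamts8, 3.43 for Ifi44, 3.36 for Oasl2, 2.68 for Apol9a, 2.39 for Apol9b, 2.33 for Bst2, 2.29 for Lgals3bp, 2.23 for Stmn4 and 2.16 for Parp14. In KD mH2A1.2 Lilrb4a and Adamts8 rested on 5 to 17 counts per sample. The difference was 2.12 for Fbxo40, 1.69 for Samd9l, 1.13 for Parp12, 1.08 for Gbp2, 0.92 for Abca1, 0.82 for Ifi27, 0.78 for Pigh, 0.41 for Cpe and 0.34 for Frrs1. Higher in KD mH2A1.2 was Irs1, at -0.42. Among genes below the controls, the level was lower in KD mH2A1.1 by a difference of -2.07 for Ptx3, -1.48 for Ces2c, -0.73 for Ccdc3, -0.64 for Tm7sf2, -0.51 for Arhgef26, -0.46 for H2afy, -0.46 for Myog, -0.29 for Dvl1 and -0.26 for Elovl5. It was lower in KD mH2A1.2, and the difference positive, at 1.45 for Ptgds, 1.06 for Tm6sf1, 0.69 for Atcay, 0.65 for Klhl40, 0.60 for Acss2, 0.51 for Actn2, 0.48 for Fdft1, 0.36 for Cacnb1 and 0.30 for Fam49b. Named genes that overlapped with the controls also differed, at -2.51 for Vldlr, -0.60 for Mylip, -0.58 for Dynlt1-ps1, -0.28 for Scap, 0.52 for Sqle and 1.2 for Lrp8.

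Within the 6 pooled knockdown samples, 1 sample stood apart from the others by Dixon's test for a few of the named genes. H2afy2 was highest in KD mH2A1.1 replicate 1 at 5.63 CPM. Ifi44 was highest in KD mH2A1.1 replicate 3 at 20.0 CPM. Npc1 was lowest in KD mH2A1.2 replicate 1 at 59.6 CPM. Chance flags about 1 in 20 groups by this test, and 97 genes were examined. The 6 samples come from both knockdowns, so a difference between the knockdowns enters this test.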

How the results depend on the processing

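With the 6 knockdown samples pooled, the count of 0 called genes was also 0 with the replicate block, with limma-voom, with DESeq2 size factors and at a stricter threshold (adjusted p under 0.01 and a change of 0.8 or more on the log2 scale). It was 3 with the library size alone, 2 without a filter, 3 with at least 10 counts in every sample, 260 with DESeq2 and 129 for the mean of both knockdowns in a model of 3 groups. Of these, 3, 2, 3, 244 and 100 had all 6 knockdown samples outside the controls. Leaving out 1 sample gave 0 to 1 calls for both counts. For the mean of both knockdowns, 129 became 3 at the stricter threshold, 403 without a filter, 964 with DESeq2, 676 with the replicate block and 2 to 309 with 1 sample left out. KD mH2A1.1 against control called 2171 genes, 3430 with DESeq2, 4065 with the replicate block and 605 to 2928 with 1 sample left out. KD mH2A1.2 against control called 460, and 1145, 1005 and 74 to 544 in the same order. The direct comparison of the knockdowns called 4397, and 2251 to 4616 with 1 sample left out. The genes with all 6 knockdown samples outside the 3 controls numbered 1173, and 1343 to 2347 with 1 sample left out, where fewer samples have to agree. Cholesterol synthesis genes below the controls numbered 15 to 17, a count that leaving out a sample can hardly lower. No named gene that was called changed direction, which leaving out a sample could hardly bring about for genes outside the controls. The alternatives for the mean of both knockdowns and for the cholesterol synthesis count were chosen after seeing the data. The cause of these changes was not tested, and 3 controls shared by every comparison limit what can be called.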
